A study of Saccharomyces cerevisiae with 4 samples.

Results

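TFIID and SAGA are the large protein complexes that bring the TATA-binding protein (TBP) to RNA polymerase II promoters in budding yeast, and 30 genes were listed as their subunits together with CHD1, a chromatin remodeler reported to associate with SAGA. A gene was taken with the probe set annotated to it alone, or the brightest by mean where there were several, which gave 29 of the 30 genes out of 5656 genes in all. No probe set was annotated to SUS1 alone, and SUS1 is not analysed here. Total RNA was hybridised to 4 Affymetrix yeast arrays, 1 for each of 4 cultures. The first carried nab3-11 (strain 1099), a temperature-sensitive allele of NAB3, and was kept for 2 hours at 37 °C, the non-permissive temperature. The second was the same strain kept for 2 hours at 25 °C, the permissive temperature. The third was wild type (strain 1415) kept for 2 hours at 37 °C, and the fourth was wild type kept for 2 hours at 25 °C. All 4 cultures grew in YPD, a rich medium. The labels do not say whether the strains differ in further alleles.

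TFIID consists of TBP, encoded by SPT15, and the TBP-associated factors, the TAFs. SAGA is a coactivator that shares a group of TAFs with TFIID and adds a histone acetyltransferase, a histone H2B deubiquitinase, TBP-binding subunits and Tra1, the subunit contacted by activators. Many TAFs and several SAGA subunits carry a histone fold and occur in pairs: Taf10 pairs with Taf3 or Taf8 in TFIID and with Spt7 in SAGA, Taf6 with Taf9, Taf4 with Taf12 and Taf11 with Taf13. Nab3, an RNA-binding protein, acts with Nrd1 and Sen1 to end transcription of short non-coding RNAs. The design asked how expression differs after 2 hours without Nab3 function.

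There was 1 array per group, so every difference below compares single arrays and has no standard error and no p-value. The number of arrays limits the precision. In bulk RNA, a change in all cells cannot be told apart from a change in some of them. Signals are given in units of the scale on which the trimmed mean of each array is 150, and they are not compared between genes, because probe sets differ in brightness per transcript. Signals at or below 21.8, the floor, were treated as equal to it, so a fold against such a signal is written "at least". Between 56.5% and 64.4% of probe sets other than controls lay above the floor on each array. The words higher and lower, used of calls, stand for a difference of at least 2-fold, or 1 on the log2 scale. NAB3 had signals of 81.0 and 72.1 in nab3-11 at 37 °C and 25 °C, against 66.7 and 66.2 in wild type. The allele is not a deletion, so NAB3 signal does not check the labels. NRD1, the gene of the Nab3 partner, had 716 and 291 in nab3-11 at 37 °C and 25 °C, against 88.8 and 125 in wild type, so it was apart between the strains at both temperatures. The labels conflict for both wild type arrays: the title and strain entry say wild type, but the free-text description says nab3-11 at 25 °C. Titles were followed here, and nab3-11 at 37 °C against nab3-11 at 25 °C is the comparison that uses neither of these arrays.

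Of the 29 genes, 15 were above the floor on all 4 arrays, 12 on some and 2 on none. The 2 below the floor throughout were NGG1, which encodes the acetyltransferase module subunit Ada3, and TAF13, whose highest signal of 21.7 in nab3-11 at 37 °C lay just under it. Of the 14 TAF genes, 9 were above the floor on every array. Of the 12 SAGA-only genes with a probe set, leaving TRA1 aside, 4 were: SPT7, SPT8, SGF73 and SGF11. Where a signal of the other SAGA-only genes is at or under the floor, the difference is compressed by it.

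**Figure D1:**
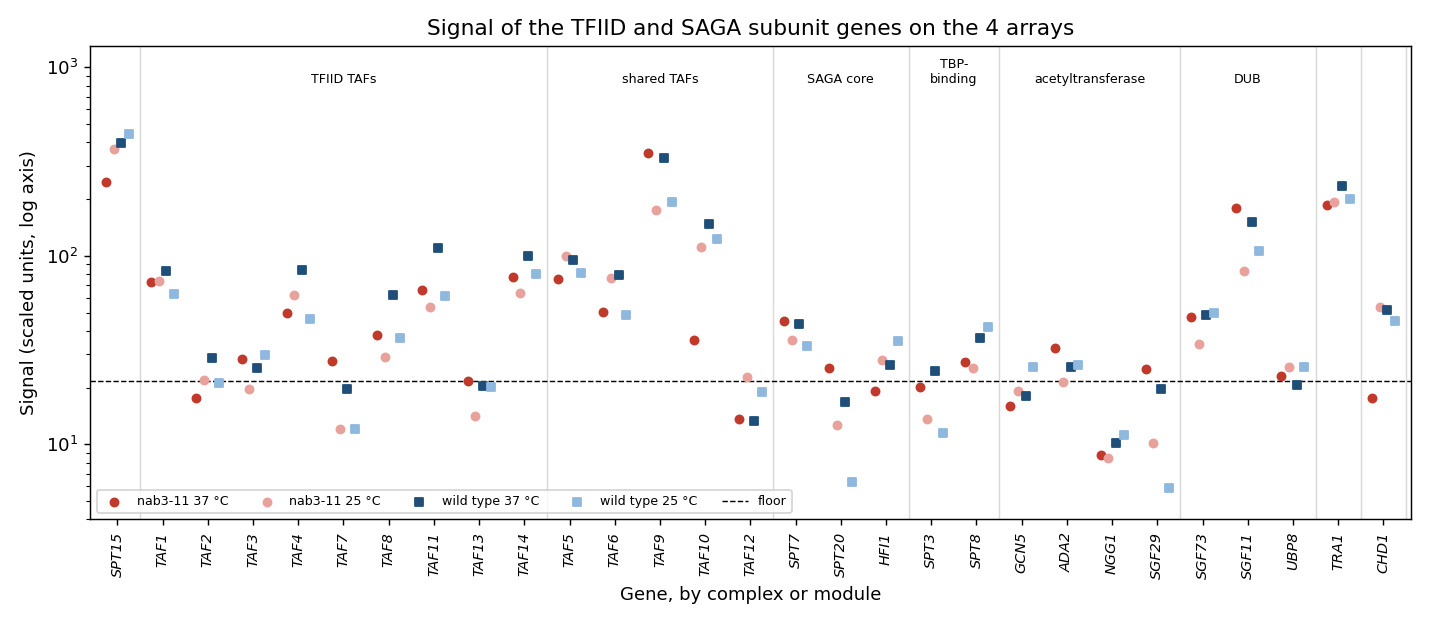
Signal of the 29 genes (log axis, scaled units) on the 4 arrays, grouped by complex or module (DUB, deubiquitinase); each point is 1 array and the dashed line is the floor of 21.8. TAF10 and CHD1 have their lowest point, in nab3-11 at 37 °C, well apart from the other 3.

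TAF10 and CHD1 were the genes of the list that were lower in nab3-11 at 37 °C than on both control arrays. TAF10 encodes a histone-fold TAF shared by TFIID and SAGA. Its signal was 35.8 in nab3-11 at 37 °C and 111 in nab3-11 at 25 °C, against 148 in wild type at 37 °C and 123 at 25 °C. The first array was low and the other 3 lay close together. TAF10 was thus 4.15-fold lower in nab3-11 than in wild type at 37 °C, the sixth lowest of 4770 measured genes (log2 difference -2.05). Within nab3-11 it was 3.10-fold lower at 37 °C than at 25 °C, at position 39 of 4630 genes from the lowest. At 25 °C the strains differed by -0.14 on the log2 scale. The strain-by-temperature difference, which is the 37 °C minus 25 °C difference in nab3-11 minus that in wild type, was -1.91 and stood at position 13 of 4811 genes from the lowest.

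CHD1 encodes an ATP-dependent remodeler with chromodomains that spaces nucleosomes over transcribed genes. It had a signal of 17.7 in nab3-11 at 37 °C, below the floor, and 53.3 in nab3-11 at 25 °C, against 51.9 in wild type at 37 °C and 44.8 at 25 °C. As for TAF10, one array was low and the other 3 were alike. CHD1 was at least 2.38-fold lower in nab3-11 than in wild type at 37 °C and at least 2.45-fold lower than in nab3-11 at 25 °C. Its strain-by-temperature difference of -1.50 uses the floor for 1 of the 4 arrays. The CHD1 call depended on the floor: with a floor at the 55th percentile of signal, the log2 difference to wild type at 37 °C was -0.24, and with the floor added to every signal it was -0.90.

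The genes next to these on the chromosome were not called between nab3-11 and wild type at 37 °C. SEC5, an exocyst gene upstream of TAF10 on the other strand, had a log2 difference of 0.06 between nab3-11 and wild type at 37 °C. CDC37, an Hsp90 co-chaperone gene downstream of TAF10 on the same strand, differed by 0.05, with a strain-by-temperature difference of -0.61. Upstream of CHD1 on the other strand, GCG1, a glutathione degradation gene, differed by 0.32, and PAB1, the poly(A)-binding protein gene downstream on the same strand, by -0.26. PAB1 had its lowest signal in nab3-11 at 37 °C, with 574 there and 1013 in nab3-11 at 25 °C, against 689.6 and 1228 in wild type. It was below its 25 °C signal in both strains, by -0.82 and -0.83 on the log2 scale, and its strain-by-temperature difference was 0.01. GCG1 was higher at 37 °C than at 25 °C in both strains, with log2 differences of 1.96 in nab3-11 and 1.79 in wild type. Gene order is that of the R64 annotation.

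These 2 genes were the 2 called of 25 measured at 37 °C between nab3-11 and wild type, both lower, which is 8% of the measured genes. Over all genes, 8.72% of 4770 were called in this comparison: 3.94% of the 4770 were lower and 4.78% were higher. The share of called genes in the list was therefore near that of the array as a whole. Against both controls, 2 of 24 genes were lower and 0 higher, where 4.04% of 4608 genes were called, 1.17% lower and 2.86% higher. To count there, a gene had to pass 2-fold in one direction in 3 comparisons: with wild type at 37 °C, with nab3-11 at 25 °C, and as a strain-by-temperature difference. These share the nab3-11 37 °C array. The list was chosen with earlier results of these data known, TAF10 among them, so its counts are not independent of those results. Without the wild type 37 °C array, TAF10 and CHD1 were still the 2 lower genes of the list, where 2.86% of 4679 genes were lower than on both 25 °C arrays and 13.2% were higher.

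**Figure D2:**
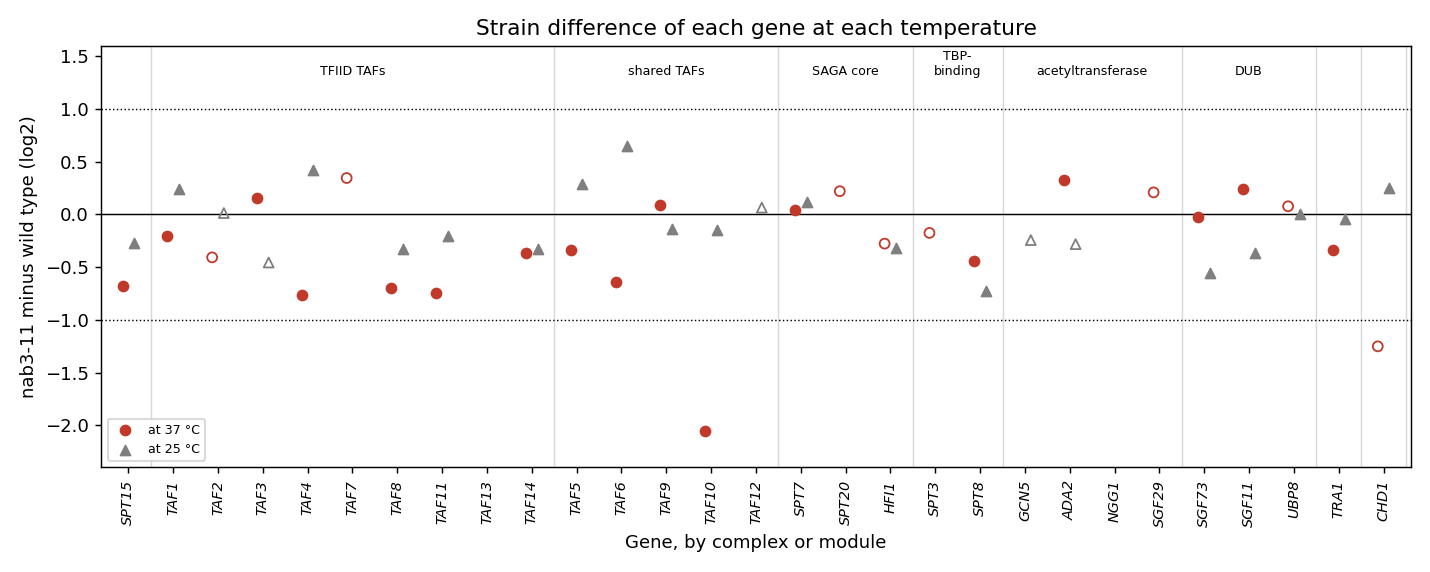
Log2 difference of nab3-11 minus wild type for each gene at 37 °C (circles) and at 25 °C (triangles); open symbols have at least 1 signal at or under the floor, dotted lines mark 2-fold, and genes not measured in a comparison have no symbol. TAF10 at -2.05 and CHD1 at -1.25 are the circles past the lower line, and no triangle passes either line.

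SPT15, the TBP gene, and the other TAF genes measured were not called between the strains at 37 °C. TAF2 and TAF7 gave only bounds there, and TAF12 and TAF13 were not measured. SPT15 had signals of 247 in nab3-11 at 37 °C and 368 in nab3-11 at 25 °C, against 395 in wild type at 37 °C and 445 at 25 °C. The lowest was again nab3-11 at 37 °C, with a log2 difference of -0.67 to wild type. Of the 12 TAF genes measured in that comparison 9 lay below the median of all genes, which was -0.05, and the median of the 12 was -0.38. TAF4, TAF11 and TAF8 followed TAF10 with log2 differences of -0.76, -0.74 and -0.70.

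TAF4 encodes the histone-fold partner of Taf12 in TFIID. Its signal was 49.8 in nab3-11 at 37 °C and 62.1 in nab3-11 at 25 °C, against 84.5 in wild type at 37 °C and 46.3 at 25 °C. Here the wild type 37 °C array stood out as the highest, and the other 3 lay between 46.3 and 62.1. TAF11, a partner of Taf13, had 66.0 and 53.2 in nab3-11 at 37 °C and 25 °C, against 110.4 and 61.2 in wild type. TAF8, a partner of Taf10, had 38.1 and 29.2 in nab3-11 and 61.7 and 36.7 in wild type in the same order. In TAF11 and TAF8 too, the wild type 37 °C array was the highest, while the other 3 were closer to each other.

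TAF6 encodes a shared TAF that pairs with Taf9. TAF6 had signals of 50.7 in nab3-11 at 37 °C and 76.7 in nab3-11 at 25 °C, against 78.9 in wild type at 37 °C and 48.8 at 25 °C. The order of the temperatures was opposite in the 2 strains. The strain-by-temperature difference was -1.29 for TAF6 and -1.19 for TAF4, so both passed 2-fold there although no pairwise comparison of either gene did. With the floor added to every signal they stood at -0.96 and -0.87, short of 2-fold.

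Together with TAF10 and CHD1, this made 4 lower and 0 higher genes of 27 in the strain-by-temperature difference, or 14.8%. Over all 4811 genes, 5.45% were lower and 4.47% higher, in total 9.91%. Here too, TAF10 was known from earlier results when the list was chosen. The wild type 37 °C array enters the strain-by-temperature difference, and TAF4 and TAF6 were at their highest on it. For TAF6 the nab3-11 25 °C array was nearly as high, at 76.7 against 78.9. With arrays scaled to a common median, TAF6 in nab3-11 at 25 °C was 0.63 above wild type at 25 °C on the log2 scale. With that scaling, wild type at 37 °C was 0.19 above wild type at 25 °C for TAF6. Neither TAF4 nor TAF6 was lower against both controls.

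The shared TAFs besides TAF10 that were measured at 37 °C, which are TAF5, TAF6 and TAF9, were not called between the strains there. TAF9, the partner of Taf6, had signals of 352 in nab3-11 at 37 °C and 175 in nab3-11 at 25 °C, against 330.4 in wild type at 37 °C and 193 at 25 °C. Both 37 °C arrays were high and the strains were alike, with a log2 difference of 0.09 at 37 °C. TAF5, a WD-repeat scaffold subunit, had 74.9 and 99.3 in nab3-11 at 37 °C and 25 °C, against 94.9 and 81.3 in wild type, a log2 difference of -0.34 at 37 °C. Its lowest array, like that of TAF10, was nab3-11 at 37 °C. TAF12 was above the floor only in nab3-11 at 25 °C, at 22.8, and was not measured at 37 °C.

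TAF1, TAF2, TAF3, TAF7 and TAF14 were called in no comparison. TAF1, which encodes a TFIID scaffold subunit that contacts TBP, had signals of 72.2 and 73.8 in nab3-11 at 37 °C and 25 °C, against 83.0 and 62.5 in wild type. TAF14, whose product is also found in TFIIF and in chromatin remodelers, had 77.6 and 63.8 in nab3-11, against 99.8 and 80.2 in wild type. At 37 °C their log2 differences were -0.20 and -0.36. TAF2, TAF3 and TAF7 were at or near the floor. Between nab3-11 and wild type at 37 °C, TAF3 had a log2 difference of 0.16. TAF2 had a signal under the floor in nab3-11, which gives a bound of at least 1.33-fold below wild type. TAF7 had one under the floor in wild type, which gives a bound of at least 1.27-fold above it in nab3-11. Neither bound reaches 2-fold.

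TAF3 and SPT7 encode partners of Taf10 besides Taf8. TAF3 had signals of 28.3 and 19.7 in nab3-11 at 37 °C and 25 °C, against 25.4 and 29.9 in wild type. SPT7, the SAGA core subunit that pairs with Taf10, had 45.2 in nab3-11 at 37 °C and 35.9 in nab3-11 at 25 °C, against 43.8 in wild type at 37 °C and 33.1 at 25 °C. SPT7 was slightly higher at 37 °C in both strains, and its strains differed by 0.05 there. The 3 partner genes therefore ranged from -0.70 to 0.16 between nab3-11 and wild type at 37 °C, against -2.05 for TAF10.

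Of the SAGA-only genes, leaving TRA1 aside, 0 of 10 measured at 37 °C and 0 of 8 at 25 °C were called between nab3-11 and wild type, where 8.72% and 1.7% of all genes were called, so counts of 0 in so few genes are no result about them. The 10 at 37 °C ranged from -0.44 to 0.33 with a median of 0.06, where the median of all genes was -0.05. SPT8, a TBP-binding subunit gene, had the lowest value: its signals were 27.2 and 25.4 in nab3-11 at 37 °C and 25 °C, against 36.9 and 41.9 in wild type. Both nab3-11 arrays were below both wild type arrays, with log2 differences of -0.44 at 37 °C and -0.73 at 25 °C. ADA2, the acetyltransferase module subunit that binds Gcn5, had the highest value, with 32.5 and 21.4 in nab3-11, against 25.9 and 26.5 in wild type.

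GCN5, the acetyltransferase gene itself, was above the floor only in wild type at 25 °C, at 25.8. SGF29, which encodes the methyl-histone reader of that module, was above it only in nab3-11 at 37 °C, at 25.2. SPT20, a core scaffold gene, was likewise above it only in nab3-11 at 37 °C, at 25.4, and SPT3, a TBP-binding subunit gene related to TAF11 and TAF13, only in wild type at 37 °C, at 24.6. HFI1, the core partner of Taf12, had 19.3 and 28.2 in nab3-11 at 37 °C and 25 °C, against 26.4 and 35.2 in wild type. These genes lie too close to the floor for a 2-fold fall from their signals to be detectable, and a rise that starts under the floor is compressed.

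The deubiquitinase module held the SAGA-only gene with a call. SGF11, which encodes a zinc finger subunit that activates the protease Ubp8, had a signal of 179.95 in nab3-11 at 37 °C and 82.7 in nab3-11 at 25 °C, against 152 in wild type at 37 °C and 107 at 25 °C. Both 37 °C arrays were above both 25 °C arrays. UBP8, the protease gene, had 23.0 and 25.7 in nab3-11 at 37 °C and 25 °C, against 20.7 and 25.7 in wild type. SGF73, the subunit gene that ties the module to SAGA, had 47.7 and 33.9 in nab3-11, against 48.6 and 49.8 in wild type, so nab3-11 at 25 °C was the low array.

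TRA1 encodes the very large activator-binding subunit that SAGA shares with the acetyltransferase complex NuA4. Its signal was 185 in nab3-11 at 37 °C and 193 in nab3-11 at 25 °C, against 234 in wild type at 37 °C and 199.6 at 25 °C. The arrays were close, with a log2 difference of -0.34 at 37 °C. TRA1 is the only gene of the list with several probe sets: of 13 annotated to it, 2 were above the floor on all 4 arrays and 11 on none. Whether the 12 probe sets not used all measure TRA1 was not checked. The brightest of these had 67.6 and 68.6 in nab3-11 at 37 °C and 25 °C, against 77.9 and 70.9 in wild type. The other 28 genes rest on 1 probe set each, so no second probe set checks TAF10 or CHD1.

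With the shift to 37 °C in nab3-11, 2 genes of 25 were higher, TAF9 (2.01-fold) and SGF11 (2.18-fold), and 2 were lower, TAF10 and CHD1. That is 16% of the measured genes, where 19.8% of 4630 genes were called, 15.7% higher and 4.06% lower. In wild type 0 of 23 genes were called between 37 °C and 25 °C, where 12.5% of 4650 genes were called, 11.1% higher and 1.44% lower. There TAF4, TAF11, TAF9 and TAF8 came closest, with log2 differences of 0.87, 0.85, 0.78 and 0.75, and SGF11 had 0.51.

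Temperature differences depended on how the arrays were scaled. The median of all genes between 37 °C and 25 °C was 0.21 in nab3-11 and 0.29 in wild type, and -0.26 and -0.19 when the arrays were scaled to a common median. With that scaling the calls in nab3-11 were 0 higher and 4 lower of 24 genes, SPT15 and TAF6 joining TAF10 and CHD1. Over all genes, 330 were then higher and 695 lower of 4589, against 727 and 188 of 4630 as reported. With quantile normalization the calls were 0 higher and 3 lower of 24, TAF6 joining TAF10 and CHD1. There 438 of 4582 genes in all were higher and 402 lower. TAF9 and SGF11 kept a positive log2 difference in nab3-11, of 0.49 and 0.60 on the common median and 0.79 and 0.72 after quantile normalization. In wild type, SGF11 had 0.51 as reported, 0.006 on the common median and 0.17 after quantile normalization. TAF9 there had 0.78, 0.27 and 0.57 in the same order. TAF10 in wild type was 0.28 higher at 37 °C than at 25 °C as reported, -0.23 on the common median and -0.07 after quantile normalization.

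**Figure D3:**
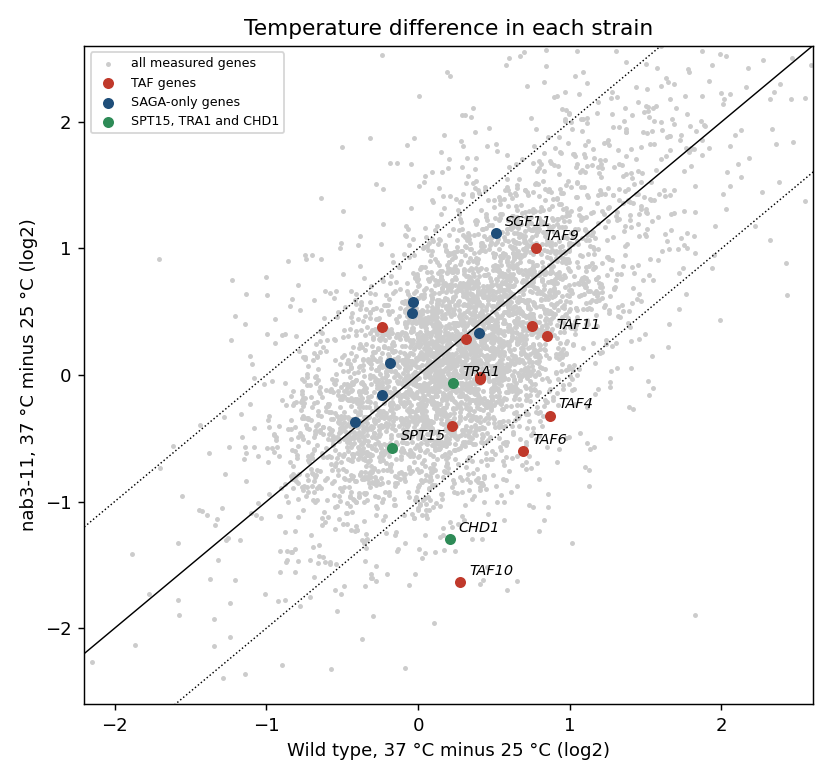
Log2 difference of 37 °C minus 25 °C in nab3-11 (vertical) against wild type (horizontal), which share no array, for 21 listed genes measured in both (coloured) and all other measured genes (grey; 61 of 4469 genes fall outside the axes). The solid line marks equal differences and the dotted lines a 2-fold strain-by-temperature difference; TAF10, CHD1, TAF6 and TAF4 lie beneath the lower dotted line.

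The strain-by-temperature values of TAF genes and SAGA-only genes are given side by side, a split made after values were seen and not tested. Of 13 measured TAF genes 9 were below the median of all genes and 4 above it, with a median of -0.42 against -0.05. Of 11 measured SAGA-only genes 2 were below it and 9 above it, with a median of 0.22. The SAGA-only genes above the floor on all arrays had -0.07 for SPT7, 0.29 for SPT8, 0.53 for SGF73 and 0.61 for SGF11. The other SAGA-only values have at least 1 array at or under the floor. Fewer SAGA-only than TAF genes were above the floor on every array, 4 of 12 against 9 of 14, and the part of this in the values was not tested. Among both sets, TAF4, TAF6 and TAF10 passed 2-fold. The strain differences that enter these values were also read at each temperature. For SAGA-only genes, nab3-11 minus wild type had a median of -0.30 at 25 °C and 0.06 at 37 °C. At 25 °C, 7 of the 8 measured lay below the median of all genes. For TAF genes the medians were -0.06 at 25 °C and -0.38 at 37 °C.

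At 25 °C, 0 of 23 genes were called between nab3-11 and wild type, where 1.7% of 4282 genes were called, 0.537% lower and 1.17% higher. SPT8 at -0.73, TAF6 at 0.65 and SGF73 at -0.56 were the farthest from 0. The median of the 23 was -0.14, and that of all genes was 0.01.

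The other machinery of transcription initiation was read from 8 lists with 86 genes, all with a probe set: Mediator, the general factors TFIIA, TFIIB, TFIIE, TFIIF and TFIIH, RNA polymerase II, regulators of TBP, NuA4, further ADA and SLIK subunits, the remodeler SWI/SNF and the ISWI and INO80 catalytic subunits. Of the 75 genes measured between nab3-11 and wild type at 37 °C, 2 were lower and 0 higher, with a median of -0.12, where 3.94% of all genes were lower, 4.78% higher and 8.72% called in all. TFB2, which encodes a TFIIH subunit, had a signal of 12.8 in nab3-11 at 37 °C and 50.0 in nab3-11 at 25 °C, against 67.5 in wild type at 37 °C and 57.7 at 25 °C. One array was low, as for TAF10 and CHD1, and TFB2 was at least 3.10-fold lower than in wild type at 37 °C. Its low signal was below the floor, like that of CHD1, and other floor settings are not given for TFB2. TFB2 was the 1 gene of the 86 that was lower against both controls, where 1.17% of 4608 genes in all were.

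RPB11, an RNA polymerase II subunit gene, was the other. Its signals were 79.6 and 72.9 in nab3-11 at 37 °C and 25 °C, against 167 and 149 in wild type, so the strains were apart at both temperatures and the strain-by-temperature difference was -0.04. Of the 18 Mediator genes measured at 37 °C, 0 were called and the median was 0.03, where 8.72% of all genes were called. RNA polymerase II genes had a median of -0.30, with 11 of 12 below the median of all genes. The 3 regulators of TBP had a median of -0.47, with all 3 below it and 0 called, and the 16 measured general factor genes one of -0.05.

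**Figure D4:**
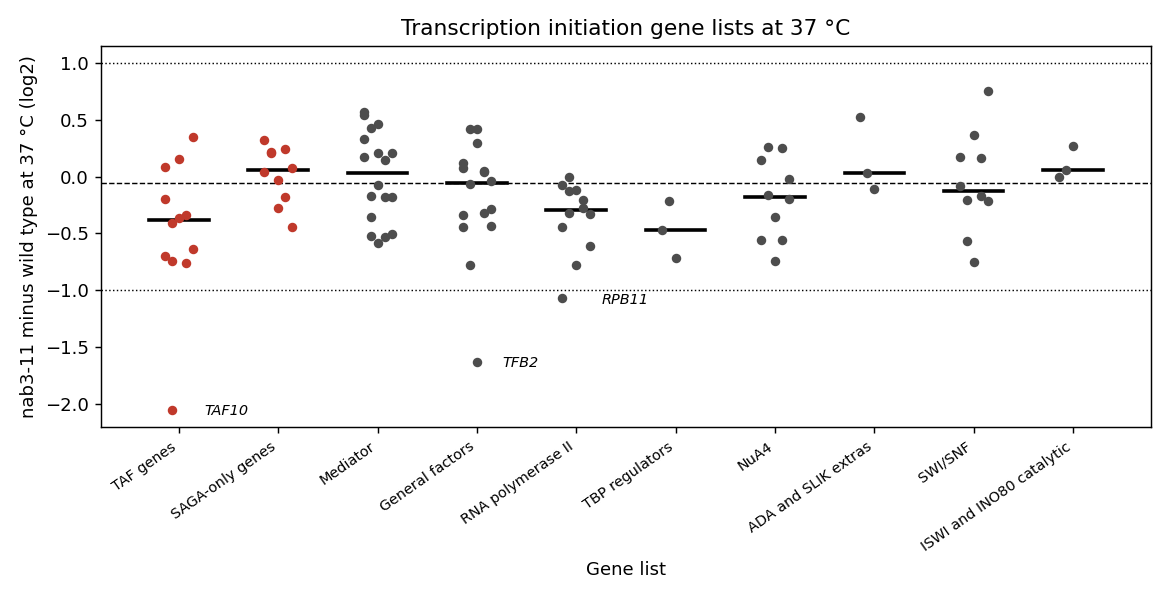
Log2 difference of nab3-11 minus wild type at 37 °C for each measured TAF gene and SAGA-only gene (red) and each measured gene of the 8 other lists (grey); bars are list medians, the dashed line is the median of all genes (-0.05) and dotted lines mark 2-fold. TAF10, TFB2 and RPB11 lie beneath the lower dotted line, and the other points lie between the lines; SPT15, TRA1 and CHD1 are not drawn.

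TAF10 was past 2-fold in each of the 8 other settings of scaling, floor and probe sets, but not all of these could move it. Its log2 difference ranged from -2.18 to -1.56 between nab3-11 and wild type at 37 °C, from -2.15 to -1.21 between 37 °C and 25 °C in nab3-11, and from -1.99 to -1.44 in the strain-by-temperature difference. CHD1 was past it in 6 of 8 settings against wild type at 37 °C, with a range from -1.55 to -0.24. On the common median and after quantile normalization CHD1 was only just past 2-fold, at -1.01 and -1.02. Both genes have 1 probe set each, so the settings of probe sets could not change their values. The values as deposited hardly differed, at -2.05 for TAF10 and -1.25 for CHD1 in that comparison. The lower floor could not move TAF10 either, since all its signals lie above the floor otherwise used.

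**Figure D5:**
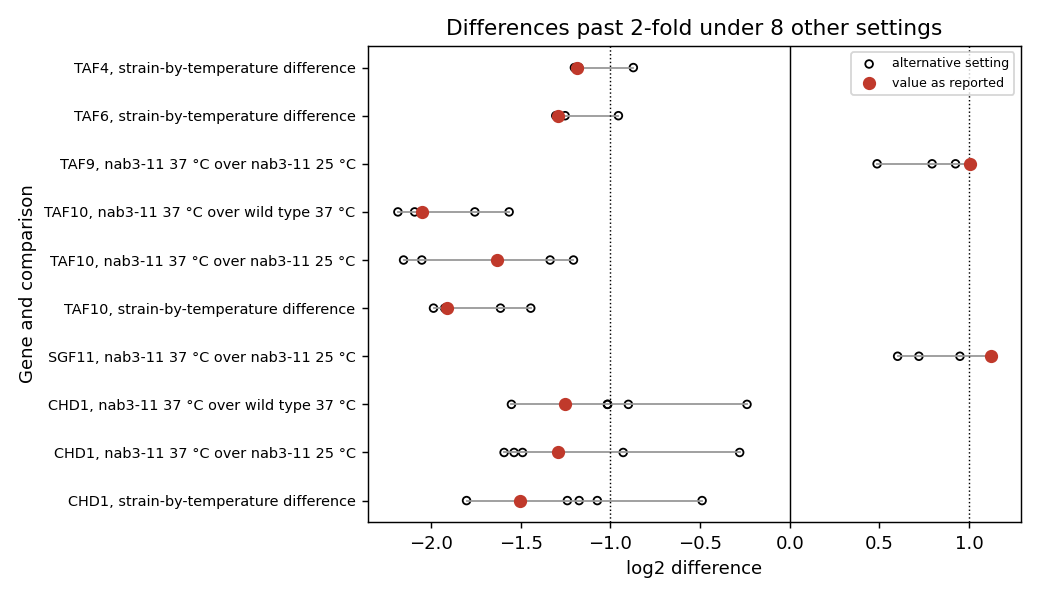
Log2 differences past 2-fold as reported (filled) and in 8 other settings of scaling, floor and probe sets (open), 1 line per gene and comparison; dotted lines mark 2-fold. The 3 TAF10 lines stay left of the lower dotted line, whereas each CHD1 line crosses it. Both genes have 1 probe set each, so the settings of probe sets could not move them.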

How the data were processed

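Per the labels' protocols, hot acid phenol was used for RNA extraction, and biotin label was added in a single amplification primed with oligo(dT). The authors deposited 1 linear intensity per probe set; the submitters' processing notes name GCOS 1.1.1 and MAS5. Trimmed means of the deposited arrays were 150.1 to 150.2, so a change in total RNA per cell cannot be seen. Here each array was scaled to a 2% trimmed mean of 150, signals were raised to the floor (the 40th percentile, 21.8) and log2 was taken. A gene was measured where its highest signal in a comparison exceeded the floor. Of 9335 probe sets, 6504 had 1 gene and were matched to R64 names by gene ID; 328 had several, 2443 none and 60 were controls. All listed genes are named, with NAB3 and NRD1, genes of the other lists past 2-fold at 37 °C, and neighbours of called genes. With 1 array per group no test was run; 6 comparisons were made, with 9 alternative settings. The genes and lists were chosen with earlier results of these data known, TAF10 among them. Sequences were not analysed here. Calculations ran in Python 3.11.15 (pandas 2.3.3, numpy 2.4.6 and scipy 1.17.1), with figures by matplotlib 3.10.9.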

Additional observations from a re-analysis of the deposited data

Results flagged for a closer look

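For 4 genes the log2 difference between 37 °C and 25 °C was negative in nab3-11 and positive in wild type, with a strain-by-temperature difference past 2-fold: TAF10 (-1.91), CHD1 (-1.50), TAF6 (-1.29) and TAF4 (-1.19). In nab3-11 the difference was past 2-fold for TAF10 and CHD1 but not for TAF6 (-0.60) and TAF4 (-0.32), and in wild type for none of the 4 (0.28, 0.21, 0.69 and 0.87 for TAF10, CHD1, TAF6 and TAF4). The contrast was not tested, since each group is 1 array. With the arrays scaled to a common median, the wild type values of TAF10 and CHD1 were negative too, at -0.23 and -0.30, while those of TAF6 and TAF4 were 0.19 and 0.36.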

How the results depend on the processing

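No paired analysis was possible because each group has 1 array. Of 912 single-gene values under the alternatives, 904 moved by less than 1.5-fold and 8 by more, and none of those called changed sign. The alternatives include the settings of probe sets, which could not move the 28 listed genes with 1 probe set each. Of 95 counts and medians, 83 stayed within 1.5-fold and 12 did not. With the floor at the 25th percentile, 7 of 28 genes were called between 37 °C and 25 °C in nab3-11 and 2 of 29 in wild type, against 4 and 0. Over all genes, 937 were then higher and 213 lower of 5286 in nab3-11, and 741 and 83 of 5275 in wild type. The added ones of the list were TAF7, SPT20 and SGF29 in nab3-11 and SPT3 and SGF29 in wild type. All of these had a signal at or under the floor otherwise used. With the floor at the 55th percentile, 1 gene was called against wild type at 37 °C and 1 against both controls, against 2 each. Over all genes, 171 were then higher and 98 lower of 3861 against wild type, and 124 and 29 against both controls. With the floor added to every signal, 1 was called against wild type at 37 °C, 1 against nab3-11 at 25 °C, 2 in the strain-by-temperature difference and 1 against both controls, against 2, 4, 4 and 2. In the same order, the higher and lower calls over all genes were 159 and 81 of 4770, 512 and 126 of 4630, 140 and 121 of 4811, and 93 and 17. A 3-fold threshold left 1 gene, TAF10, in each of these 4, where 29, 47, 40 and 5 of all genes were lower and 70, 295, 74 and 48 higher. TAF10 was among the genes called in each of these cases except the wild type shift. Signals near the floor limit what can be seen for most SAGA-only genes.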
